A study of Homo sapiens with 2 samples.

Results

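The RNAs described here are short noncoding RNAs made by RNA polymerase III or built into RNase P and RNase MRP, as seen in PAR-CLIP of SOX2. They are RN7SK, RN7SL1 and RN7SL2, RMRP, RPPH1, the vault RNAs VTRNA1-1 to VTRNA1-3, and the Y RNAs RNY1, RNY3, RNY4 and RNY5. Their sites were taken as the listed sites that touch 7 given hg19 intervals on the given strand (either strand for the Y RNAs). This gave 35 of 72794 sites, with 15 of 16964 in replicate 1 and 20 of 55830 in replicate 2. Both samples were HEK293T cells, a human embryonic kidney line, transfected with a plasmid for FLAG-tagged SOX2, so the tag marks introduced protein and not the cells' own. Cells took up 0.2 mM 4-thiouridine for 16 hours and were irradiated at 365 nm, which crosslinks the modified uridines to bound protein. Lysates were cut with RNase T1, which cleaves after guanosine, and RNA was recovered on FLAG beads. The 2 samples form 1 group and are described as independent experiments. Crosslinking without SOX2 and the level of each RNA were not measured in any sample used here, so a high score cannot be told apart from a high RNA level.

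RNA polymerase III makes short untranslated RNAs and stops at runs of thymidine. RN7SK holds the elongation factor P-TEFb inactive together with HEXIM1, LARP7 and MEPCE. RN7SL1 and RN7SL2 are copies of 7SL, the scaffold of the signal recognition particle that brings ribosomes to the endoplasmic reticulum. RPPH1 is the catalytic RNA of RNase P, which trims the 5′ ends of tRNA precursors, and RMRP is the RNA of the related RNase MRP, which takes part in ribosomal RNA processing. Vault RNAs are components of the large cytoplasmic vault particles, and Y RNAs bind the proteins Ro60 and La.

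The deposited score is a whole number per site whose meaning no source used here gives. It is the authors' value and serves to describe and rank sites. The score sum was 5365592 for replicate 1 and 5192778 for replicate 2. Read depth is unknown.

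The vault RNAs are shown first because they held the strongest site of all the RNAs described. Sequences are those of GENCODE release 29, taken by name and written 5′ to 3′ as DNA letters. Capitals mark the 29 bases with which all of them begin.
VTRNA1-1: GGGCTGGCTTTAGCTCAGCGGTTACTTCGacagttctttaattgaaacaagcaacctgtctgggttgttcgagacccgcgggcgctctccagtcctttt
VTRNA1-2: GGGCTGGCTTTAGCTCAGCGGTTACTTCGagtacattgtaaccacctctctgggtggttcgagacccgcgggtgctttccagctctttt
VTRNA1-3: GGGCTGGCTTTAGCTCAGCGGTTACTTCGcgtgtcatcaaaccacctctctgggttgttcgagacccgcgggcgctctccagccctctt
VTRNA1-2 was identical to VTRNA1-3 at 86.5% and to VTRNA1-1 at 80.8% of alignment columns, gaps included. The first comparison had 12 mismatches and 0 gap columns, and the second 9 mismatches and 10 gap columns. These shares therefore do not rank the copies by likeness to VTRNA1-2.

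For RMRP and RPPH1, capitals mark the stretches that must hold the sites found in both replicates, if the whole RNA is inside its interval. For RN7SK they mark the stretch that must hold its sites, of which none was found in both.
RMRP: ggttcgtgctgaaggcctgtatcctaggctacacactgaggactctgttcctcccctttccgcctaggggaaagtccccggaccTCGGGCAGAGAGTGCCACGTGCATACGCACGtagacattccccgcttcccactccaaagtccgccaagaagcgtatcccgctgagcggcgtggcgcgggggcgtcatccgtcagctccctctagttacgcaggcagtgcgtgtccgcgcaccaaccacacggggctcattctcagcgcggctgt
RPPH1: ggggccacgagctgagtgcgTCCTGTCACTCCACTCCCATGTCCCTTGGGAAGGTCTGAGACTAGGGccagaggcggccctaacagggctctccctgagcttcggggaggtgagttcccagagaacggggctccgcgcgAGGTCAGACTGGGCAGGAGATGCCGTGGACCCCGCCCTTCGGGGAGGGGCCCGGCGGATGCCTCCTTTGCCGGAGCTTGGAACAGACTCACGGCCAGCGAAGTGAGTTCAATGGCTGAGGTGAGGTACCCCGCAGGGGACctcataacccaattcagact
RN7SK: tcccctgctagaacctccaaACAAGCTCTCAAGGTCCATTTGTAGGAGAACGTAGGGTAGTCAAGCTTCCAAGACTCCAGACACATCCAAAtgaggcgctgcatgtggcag
RMRP is shown whole, RPPH1 from base 22 to 320 of 333 and RN7SK from base 207 to 317 of 328. The intervals are 13 nt (RMRP) to 33 nt (RN7SK) longer than the whole RNAs, and each stretch is widened by that uncertainty. Positions below are counted from the 5′ edge of the interval.

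Sites of these RNAs had high scores. In replicate 1 they scored from 107 to 16236 with a median of 1027, against a median of 26 over the whole list. In replicate 2 they scored from 30 to 27212 with a median of 981, against 19 over the whole list. A score of at least 1000 was reached by 8 of the 15 sites in replicate 1, where 1.58% of all sites reached it. In replicate 2 it was reached by 10 of the 20 sites, where 0.491% of all sites reached it. A score of at least 100 was reached by 15 of 15 sites in replicate 1 and 16 of 20 in replicate 2, beside 14.8% and 7.34% of all sites. Site lengths were ordinary, with medians of 17 nt and 19 nt beside 16 nt and 17 nt for the whole lists. Because sites of 1 RNA are not independent and no control library was used, these counts were not tested.

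**Figure D1:**
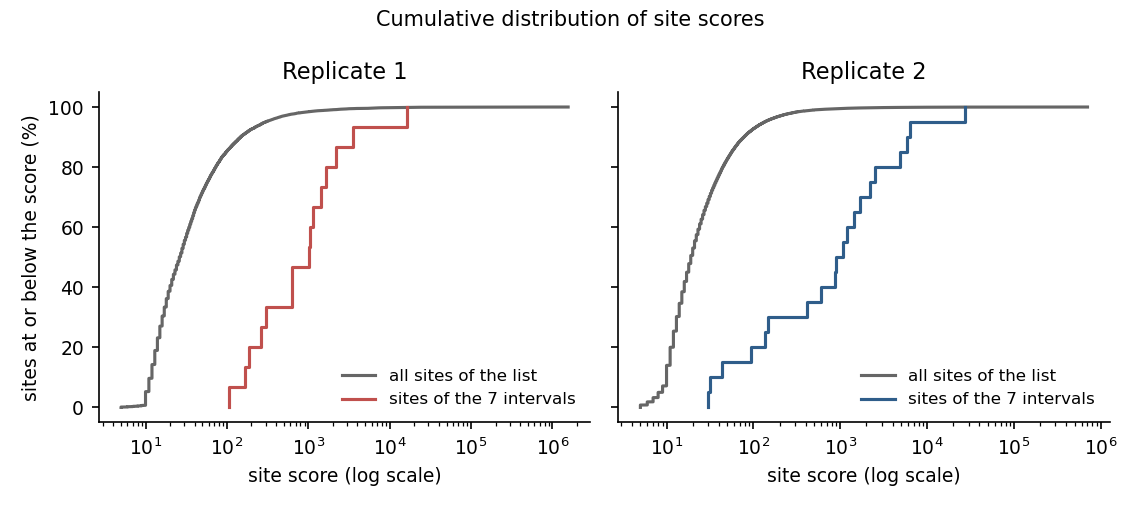
Cumulative share of sites (y axis, %) at or below a score (x axis, log scale), for the sites of the 7 intervals (coloured) and all sites of the list (grey), one panel per replicate. In both panels the coloured curve lies to the right, with medians of 1027 (replicate 1) and 981 (replicate 2), while all sites had medians of 26 and 19.

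Together the sites took 0.840% ± 0.382 of the summed score (SD, n = 2). The values were 0.570% for replicate 1 and 1.11% for replicate 2, while the sites were 0.0884% and 0.0358% of all sites. One vault site carried much of this. Without it the share was 0.268% in replicate 1 and 0.589% in replicate 2.

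For 6 intervals the strand was part of the choice of sites, and on their opposite strand neither list had a site. The Y RNA span was searched on both strands, and its sites were on the plus strand in both lists. Within 1000 nt outside the intervals on the same strand, replicate 1 had 1 site, with a score of 13 at 291 nt from the RPPH1 interval, and replicate 2 had none. Replicate 1 sites covered from 0% of the RN7SL1 interval to 28.5% of the RPPH1 interval, among the 5 intervals with a single RNA. Replicate 2 sites covered from 4.16% of RN7SK to 39.3% of RPPH1.

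**Figure D2:**
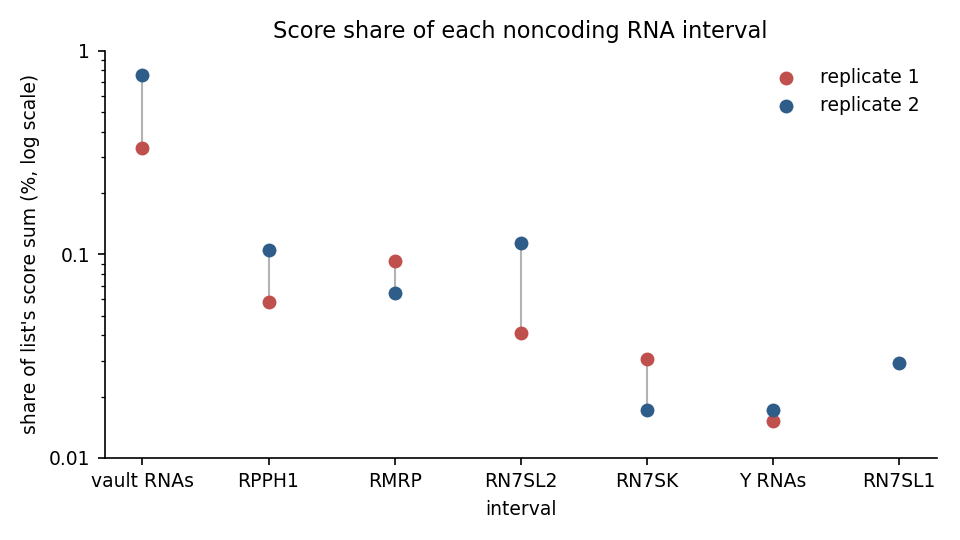
Share of the list's score sum (y axis, %, log scale) in each of the 7 intervals (x axis) for replicate 1 (red) and replicate 2 (blue), with a grey line joining the replicates. The sums are over intervals of unequal length. The vault RNA span is highest in both, at 0.331% and 0.763%, and RN7SL1 has no point for replicate 1, which listed no site there.

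The vault RNA span of chromosome 5, plus strand, from 140090850 to 140105900, held sites at 3 positions separated by more than 1000 nt. VTRNA1-1 and VTRNA1-3 mark the ends of the span by the way it was defined, and VTRNA1-2 lies between them in the GRCh38 annotation. Gene order alone would place the middle position at VTRNA1-2, which was not checked against an hg19 annotation. The vault RNAs begin with the same 29 bases. With gaps counted as differences, VTRNA1-2 was 86.5% identical to VTRNA1-3 and 80.8% to VTRNA1-1. Reads from one could thus match another, and how such reads were treated is not known, so the scores are uncertain as to the copy. In replicate 1 the site there ran from 140098554 to 140098573 and scored 16236. In replicate 2 it ran from 140098560 to 140098579 and scored 27212. It ranked 27 in replicate 1 and 17 in replicate 2 of the whole lists. Both sites were 20 nt long and overlapped by 14 nt. It took 0.303% and 0.524% of the score sums.

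At the outer vault positions most sites did not overlap between replicates. Over the whole lists 21.3% of replicate 1 sites and 6.5% of replicate 2 sites did overlap, so most did not there either. Among all sites with scores of at least 1000 it was 60.8% and 55.1%. At the last position, replicate 1 had a site at 140105826 to 140105846 with a score of 299, and replicate 2 one at 140105753 to 140105771 with a score of 4895. The gap between them was 54 nt. Together they extended over 94 nt, more than the 89 nt of VTRNA1-3, so both cannot lie wholly inside that RNA. At the first position, replicate 1 had a site with a score of 1132, 106 to 127 nt from the span's edge. Replicate 2 had sites with scores of 1188 and 6293, at 30 to 60 nt and 74 to 87 nt. These 3 sites extended over 98 nt, and VTRNA1-1 is 99 nt long. Farther along, 236 to 257 nt from the edge, a weak site was listed in both, with scores of 107 in replicate 1 and 32 in replicate 2. It began 108 nt after the end of the others, so these sites together cannot all lie in VTRNA1-1.

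**Figure D3:**
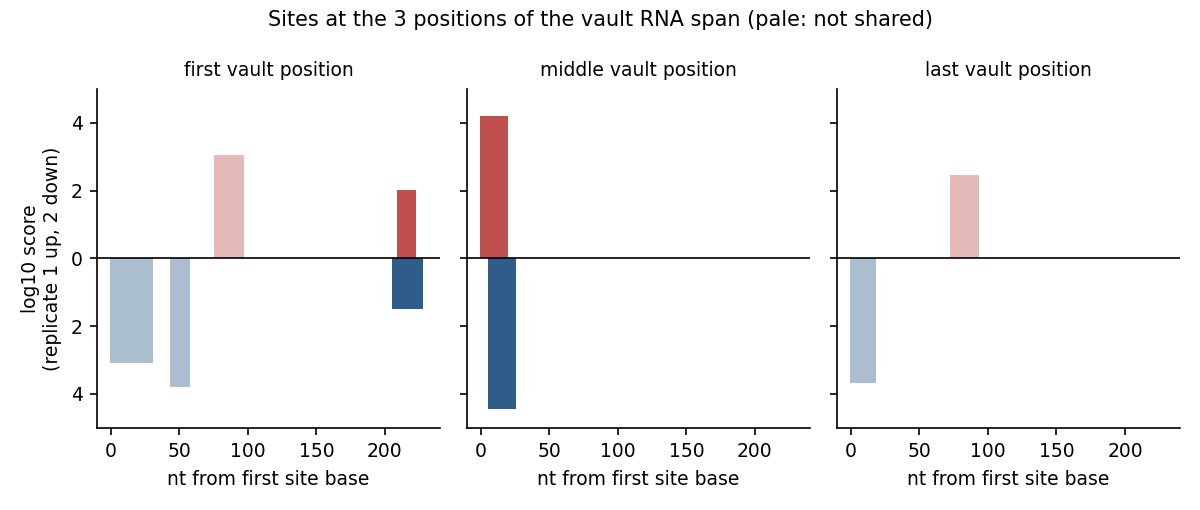
Sites at the 3 positions of the vault RNA span, with distance from the first site base on the x axis (nt) and log10 score on the y axis, replicate 1 upwards in red and replicate 2 downwards in blue; pale bars are sites that do not overlap a site of the other replicate. In the middle panel the 2 tallest bars, 16236 and 27212, overlap, while in the right panel the bars stand 54 nt apart.

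RPPH1 had the most sites of the RNAs described, with 5 in replicate 1 and 6 in replicate 2. Its interval on chromosome 14, minus strand, runs from 20811220 to 20811580. Replicate 1 scored 1027, 1050, 260, 624 and 169 from the 5′ to the 3′ side. Replicate 2 scored 2509, 43, 147, 410, 2199 and 135 in the same order. In each list 4 sites overlapped a site of the other. From 5′ to 3′ these pairs scored 1050 and 2509, 260 and 410, 624 and 2199, and 169 and 135 in replicates 1 and 2. The first pair, 70 to 88 nt from the 5′ edge, overlapped by 14 nt. Replicate 1 alone had a site 28 to 41 nt from the edge, and replicate 2 alone had the sites at 108 to 127 nt and 140 to 176 nt. The sites of both lists ran from 28 to 300 nt of the 361 nt interval.

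RMRP carried 2 sites in replicate 1 and 3 in replicate 2, in an interval on chromosome 9, minus strand, from 35657740 to 35658020. The site at 35657906 to 35657922 in replicate 1 scored 1432, and its partner in replicate 2, which ended 1 nt later, scored 593. Both had the same start. The strongest RMRP site of replicate 1, at 35657800 to 35657813 with a score of 3565, had no partner. A gap of 11 nt separated it from the replicate 2 site at 35657825 to 35657858, which scored 1671. Replicate 2 had a further site with a score of 1072, 122 to 136 nt from the 5′ edge.

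RN7SL2 had 1 site in each replicate, and RN7SL1 had sites in replicate 2 alone. In RN7SL2, on the minus strand of chromosome 14, replicate 1 scored 2197 at 50329300 to 50329321, and replicate 2 scored 5929 at 50329310 to 50329337. These sites overlapped by 12 nt and lay 260 to 281 nt and 244 to 271 nt from the 5′ edge. In RN7SL1, on the plus strand of chromosome 14 from 50053290 to 50053600, replicate 1 listed no site. Replicate 2 listed 2 sites there, with scores of 1428 and 95. The stronger lay 244 to 266 nt from the 5′ edge and the weaker 43 to 61 nt.

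The 7SL copies are near-identical, so reads from one can match another, and their values are uncertain as to the copy. No source used here says how reads matching several places were treated.

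Beyond the RN7SL2 interval, the nearest same-strand site was 8732 nt away in replicate 1, with a score of 76474, and 8720 nt away in replicate 2, with a score of 12858. These sites, at 50320506 to 50320528 and 50320502 to 50320540, overlapped and ranked 9 and 32 in their lists. They scored 34.8 and 2.17 times the RN7SL2 interval in replicates 1 and 2. In the GRCh38 annotation the next 7SL copy on that strand is RN7SL3. The sites were not assigned to it, because no hg19 annotation was used, and they were picked out after their values were seen.

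RN7SK had 1 site in each replicate, both in its 3′ part. On the plus strand of chromosome 6, replicate 1 scored 1647 at 52860679 to 52860696, and replicate 2 scored 890 at 52860659 to 52860673. They did not overlap and were 5 nt apart, at 280 to 297 nt and 260 to 274 nt from the 5′ edge of the 361 nt interval.

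**Figure D4:**
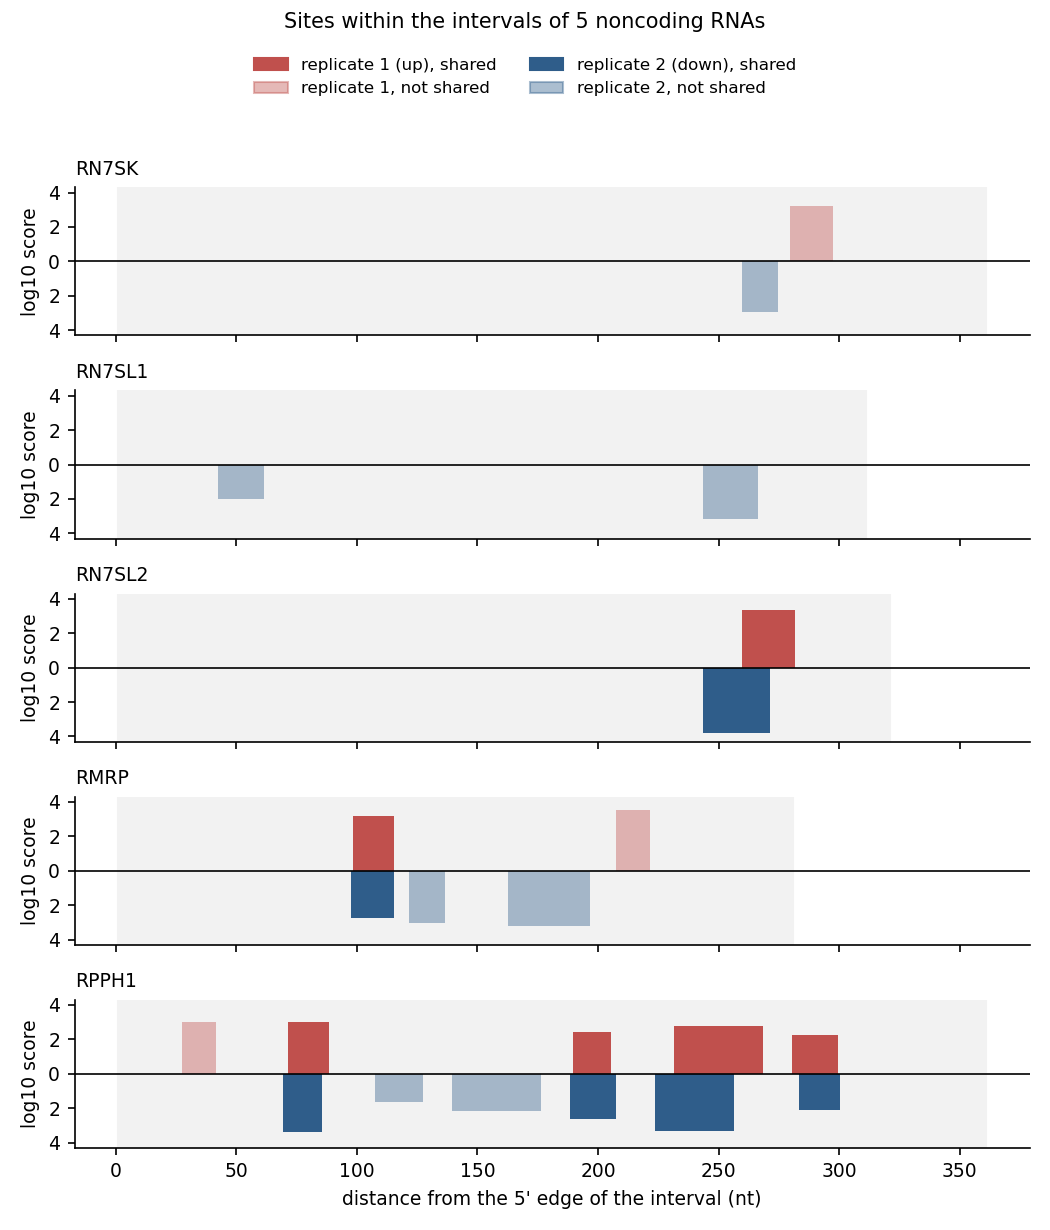
Sites within the intervals of 5 RNAs (grey), with distance from the interval's 5′ edge on the x axis (nt) and log10 score on the y axis, replicate 1 upwards in red and replicate 2 downwards in blue; pale bars are sites that do not overlap a site of the other replicate. RPPH1 has 4 overlapping pairs, RMRP and RN7SL2 have 1 each, and the RN7SK and RN7SL1 sites overlap none.

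The Y RNA span of chromosome 7, from 148638500 to 148684400, held 2 sites in each replicate. At its first position, 137 to 153 nt from the edge, replicate 1 had a score of 189 and replicate 2 a score of 862. These sites had edges 1 nt apart on either side. RNY5 is the first Y RNA gene of the cluster in the GRCh38 annotation, followed by RNY4, RNY3 and RNY1. The other position, 21944 to 22159 nt from the edge, had a site with a score of 624 in replicate 1 and one with a score of 30 in replicate 2. They were 188 nt apart and extended over 216 nt, longer than any of these RNAs, the longest of which is RNY1 with 113 nt. No site was listed on the minus strand, on which GENCODE places RNY1 in GRCh38. No Y RNA was named for a site, because gene order alone does not settle it.

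Per nt of interval, the 5 RNAs with an interval each did not keep one order. In replicate 1 the score per nt was 17.8 in RMRP, 8.67 in RPPH1, 6.84 in RN7SL2, 4.56 in RN7SK and 0 in RN7SL1. In replicate 2 it was 18.5 in RN7SL2, 15.1 in RPPH1, 11.9 in RMRP, 4.90 in RN7SL1 and 2.47 in RN7SK. RMRP, RPPH1 and RN7SL2 were thus the upper ones in both, but their order among themselves changed. As shares of the score sums, replicate 2 was 2.79-fold replicate 1 for RN7SL2, 2.30-fold for the vault span and 1.80-fold for RPPH1. It was 0.690-fold for RMRP and 0.558-fold for RN7SK. The RMRP value moved with the scale: as log2 it was -0.54, and -1.14 when each score was divided by the length of its site. Each library gave 1 value, so these differences were not tested.

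More of these sites were shared than of the lists as a whole. In replicate 1, 9 of 15 sites (60.0%, 95% Wilson interval 35.7 to 80.2) overlapped a replicate 2 site, where 21.3% of all sites did. In replicate 2, 9 of 20 (45.0%, 25.8 to 65.8) overlapped a replicate 1 site, where 6.5% of all sites did. Over each whole list strong sites were shared more often, which the few sites described here did not show. Among sites with scores of at least 1000, 4 of 8 in replicate 1 (50.0%, 21.5 to 78.5) were shared beside 60.8% of all such sites, and 4 of 10 in replicate 2 (40.0%, 16.8 to 68.7) beside 55.1%. Both list values lie inside the intervals of these shares. The intervals cover counting error over sites only. They take sites as independent, which sites of 1 RNA are not, so they are likely too narrow.

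Sites that did not overlap were often close together. Counting gaps of up to 50 nt, 13 of 15 replicate 1 sites (86.7%) had a replicate 2 site, where 31.3% of all sites did. In replicate 2 it was 16 of 20 (80.0%), where 10.6% of all sites did. Among scores of at least 1000 it was 8 of 8 in replicate 1 and 8 of 10 in replicate 2, beside 79.9% and 65.7% of all such sites. Of the 6 replicate 1 sites without overlap, 4 had a replicate 2 site within this distance, beside 12.7% of all replicate 1 sites without overlap. In replicate 2 it was 7 of 11, beside 4.41%. These last list shares are not matched on score, and the sites described here score higher than most. They are also not matched on density of sites, and RPPH1 sites covered 28.5% and 39.3% of its interval in replicates 1 and 2. Whether nearness within an RNA goes beyond such density was not tested. Of all 268 replicate 1 sites with scores of at least 1000, 163 overlapped a site and 214 overlapped or lay within 50 nt. Of all 274 such replicate 2 sites it was 151 and 180.

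The 9 pairs spread in score as widely as pairs elsewhere. Their log2 score ratio (replicate 2 over replicate 1) had an SD of 1.37 and a median of 0.75. Over all 3621 shared sites the SD was 1.37 and the median -0.21. It ran from -1.74 at the weak vault site to 2.19 at the first Y RNA position. Replicate 2 scored higher in 6 of the 9 pairs, beside 42.8% of all shared sites. Edges lay as near as elsewhere, with a median difference of 3 nt for starts and 3 nt for ends in these pairs and 3 nt for both over all shared sites.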

How the data were processed

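Reads were handled with bcl2fastq and Bowtie 1.1.2 on hg19, per the submitters' processing notes. No source used here gives the site caller, its thresholds or the treatment of reads matching several places. Each deposited list gives chromosome, start, end, name, score and strand; the authors' score takes whole values from 5 upwards, with no stated meaning and no shared total.

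Sites touching an interval by at least 1 nt were taken with Python 3.11.15, numpy 2.4.6 and pandas 2.3.3. Sites of the 2 lists were shared if they overlapped by 1 nt or more on one strand. The code for overlaps found all the overlaps set in simulated lists. There each site began at the same base as a replicate 2 site or lay far from all of them. Overlaps with shifted starts and gaps were not simulated. Positions count from 1. The members and lists were chosen with earlier results of these data known, and every interval was named. Within an interval all sites were given up to 5 per list, and the rule named the 3 highest where a list had more; for the 6 RPPH1 sites of replicate 2 all were given, a choice made after their values were seen. GENCODE release 29 and RefSeq are on GRCh38, so they served for names, gene order, lengths and sequences only; no coordinate was converted. A further list of protein partners was not run, since no hg19 annotation was used. RNY5 had no sequence in the tables used here. Sequence comparisons of the 7SL copies are not reported here.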

Additional observations from a re-analysis of the deposited data

How the results depend on the processing

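Of 37 alternatives to the counts, shares and orders given above, 29 left the value within 1.5 times the count, 1 SD or the 95% interval, and 8 moved it. For the 6 log2 ratios between replicates, taken also with scores per nt of site, the SD was the 1.37 of all shared sites, which is wide. Among these the ratio of the Y RNA span changed sign, with -0.11 per nt of site and 0.18 otherwise, and that of RMRP was -1.14 per nt of site and -0.54 otherwise. The number of sites stayed at 15 and 20 with at least 50% of each site required inside the interval and with intervals widened by 100 nt; it was 0 on the opposite strand in both lists. Leaving out either replicate gave 15 and 20 sites and shares of 0.570% and 1.11% of the score sum. With n = 2 each such share lies within 1 SD of the mean whatever its value. These shares were bound to count among the 29 and say nothing about stability. That share was 1.55% without the 10 strongest other sites, 0.0621% when sites were counted equally and 0.428% without the highest site of each replicate, the last chosen after seeing the data. With gaps of up to 50 nt, 86.7% of replicate 1 sites and 80.0% of replicate 2 sites were shared. Without RPPH1, also chosen afterwards, the shared part was 50.0% of replicate 1 sites and 35.7% of replicate 2 sites. A score of at least 1000 required in both lists was a further choice made afterwards. It left 3 of 8 replicate 1 sites (37.5%) and 3 of 10 replicate 2 sites (30.0%) shared. Of all such sites 35.8% and 34.7% were shared. Ranked per nt of interval, 0 of the 7 intervals kept their place, the vault and Y RNA spans being 15051 and 45901 nt long. No paired analysis was possible because there was a single group. Depth is unknown, and so is the treatment of reads matching several places. Whether RN7SL1 lacked signal in replicate 1, fell below the caller's threshold or had reads placed on another copy was not tested.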
